A study of Rattus norvegicus with 36 samples.

Results

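What carbon black did to rat alveolar macrophages that a pair of milder titanium dioxides did not was asked with 18 RNA-seq libraries out of the 36 in the study. The 18 are the control and overload libraries of Printex90, a carbon black, and of G3-1 and Bayertitan, which are titanium dioxide particles, with 3 libraries in each of the 6 groups. The measure is a difference of responses for every gene: the log2 change from control to overload with Printex90, minus the mean of the same change with G3-1 and with Bayertitan. A negative value means that the gene fell further, or rose less, with Printex90. G3-1 and Bayertitan were called mild because earlier counts on these data gave them small responses: here 83 (0.568%) and 48 (0.329%) of all tested genes changed under overload, against 2155 (14.8%) with Printex90 (997 without Printex90 overload 1, and 1081 and 1168 without Printex90 controls 1 and 2).

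All 36 libraries were made from total RNA of primary alveolar macrophages of male F344 rats, depleted of ribosomal RNA before sequencing. The cells were kept 5 days in culture, 4 of them with particles. Every particle has its own control group, a non-overload group and an overload group, and G1-1, another titanium dioxide, completes the set. No allele, drug or other agent is named for any group. The labels name overload and non-overload as conditions, and the sources used here do not give the particle amounts behind them. The titles call the 3 libraries of a group biological replicates without saying whether they stem from different animals, so a p-value here refers to the spread between such libraries.

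Alveolar macrophages clear inhaled particles from the air spaces, and particle overload is the state in which the swallowed load slows that clearance. The aryl hydrocarbon receptor, AhR, is a transcription factor that binds aromatic ligands, pairs with ARNT and turns on genes such as Cyp1a1 and Cyp1b1, which encode cytochrome P450 enzymes. Its binding element has the core GCGTG. Macrophages also present antigen on MHC class II molecules, whose genes share a promoter module with a Y box, the inverted CCAAT letters GATTGG, and depend on the coactivator CIITA.

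The 18 library totals lay between 26096983 and 43205421 assigned counts. Macrophage markers were present in all of them: the summed level of the alveolar macrophage list, with Pparg, Mrc1, Itgax and Fabp4 among its members, ran from 5502 to 6354 CPM (counts scaled to library size with TMM factors, the unit of all levels here) in the Printex90 controls and from 6420 to 6793 CPM under Printex90 overload. Epithelial markers were also present, with a sum of 1789 to 3248 CPM in the Printex90 controls and 1745 to 2144 CPM under Printex90 overload. That sum was 2497 to 3506 CPM and 2341 to 3110 CPM in the G3-1 controls and overload libraries, and 2268 to 2567 CPM and 2260 to 2425 CPM in those of Bayertitan. Collagen Col3a1, a fibroblast transcript, exceeded 10 CPM in 5 of the 18 libraries, namely Printex90 control 2, G3-1 controls 1 and 2 and G3-1 overload 1 and 2. Fits without the libraries over 10 CPM thus left G3-1 control 3 and G3-1 overload 3 alone in their groups. In bulk RNA, fewer cells of a type and less RNA per cell cannot be told apart.

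Of 14606 genes tested, 243 differed between the Printex90 response and the mean of the G3-1 and Bayertitan responses, which is 1.66% (adjusted p under 0.05 in edgeR's quasi-likelihood test, with p-values corrected by Benjamini-Hochberg). Lower with Printex90 were 161 genes, or 1.1%, and higher were 82, or 0.561%. Large differences were nearly all downward: 63 of the 161 lower genes and 3 of the 82 higher genes differed at least 2-fold. The median over all tested genes was -0.00763 on the log2 scale. Between the overload libraries themselves, controls set aside, Printex90 differed from the mean of G3-1 and Bayertitan at 1754 genes (12%). Of these 946 were higher (6.48%) and 808 lower (5.53%). The 161 lower genes had a median Printex90 response of -0.795 and a median G3-1 and Bayertitan response of 0.00519, and the 82 higher genes had medians of 0.515 and 0.124. Between the Printex90 controls and the mean of the G3-1 and Bayertitan controls edgeR called 0 genes, with 299 at an unadjusted p under 0.05, and 2 with DESeq2. The count of 243 rests on few libraries: it became 131 without Printex90 control 1, 143 without control 2, 126 without Printex90 overload 1 and 380 without Printex90 control 3. In the same order the lower genes became 97, 105, 92 and 230 and the higher ones 34, 38, 34 and 150, and without Printex90 overload 3 there were 54 higher genes.

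**Figure D1:**
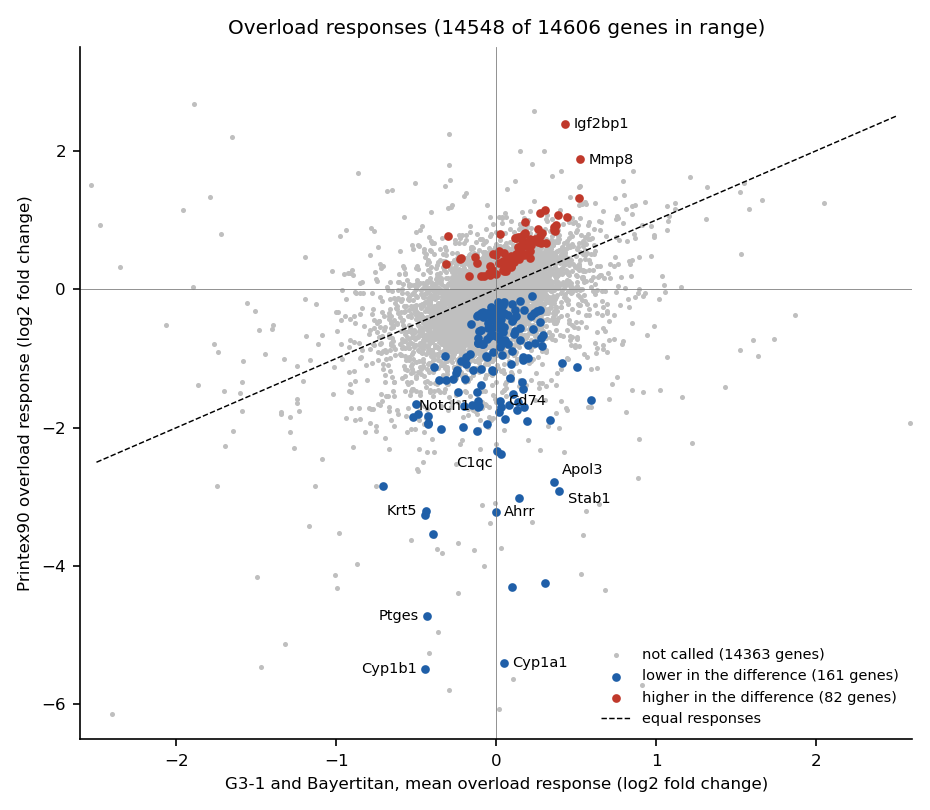
Log2 change from control to overload with Printex90 (vertical axis) against the mean log2 change with G3-1 and Bayertitan (horizontal axis), 1 point per gene, with the dashed line marking equal responses. Blue points are the 161 genes called lower in the difference and red points the 82 called higher; the 14548 genes within the axes are drawn, and no called gene lies outside them. The lower genes spread down the vertical axis near 0 on the horizontal axis.

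Known AhR target genes were among the lower genes. Of 9 tested targets, 5 were lower with Printex90, where 1.1% of all genes were, and none was higher, with a median of -1.06 against -0.00763 over all genes. Cyp1a1, an enzyme that oxidises polycyclic aromatic hydrocarbons, read 1.78, 1.6 and 3.44 CPM in the Printex90 controls and 0, 0.148 and 0 CPM under Printex90 overload. Across the same libraries it read 4.31, 2.15 and 2.64 CPM in the G3-1 controls, 1.96, 4.59 and 3.06 CPM under G3-1 overload, 3.68, 2.77 and 3.2 CPM in the Bayertitan controls and 2.83, 4.43 and 2.5 CPM under Bayertitan overload. Printex90 overload thus held a single library with any Cyp1a1 reads, 5 of them, and every other library of the 18 was higher. The difference in log2 response was -5.45 ± 0.74 (edgeR adjusted p = 2.84e-05), a fitted value that depends on how counts of 0 are handled.

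Cyp1b1, a related enzyme at higher read levels, also fell furthest with Printex90. It fell from 71.8, 94.2 and 59.1 CPM to 0.0532, 4.55 and 0.354 CPM with Printex90. G3-1 controls read 114, 123 and 89.2 CPM and overload libraries 83.3, 86.9 and 71.8 CPM, while Bayertitan went from 88.9, 77.9 and 80.3 CPM to 56.9, 50.5 and 72.3 CPM. Unlike Cyp1a1, every overload library of these particles was thus below all controls of the same particle. No AhR target was called in the mean of the G3-1 and Bayertitan responses. The Printex90 overload libraries lay far below all others and differed widely among themselves, and the difference was -5.04 ± 0.65 (edgeR adjusted p = 1.05e-05). Ahrr, the repressor that AhR itself induces, read 5.77, 4.05 and 5.71 CPM in Printex90 controls and 0.453, 0.71 and 0.496 CPM under overload. Its levels stayed between 4.02 and 6.52 CPM in the G3-1 and Bayertitan libraries, so that no Printex90 overload library overlapped them, and the difference was -3.22 ± 0.28 (edgeR adjusted p = 9.97e-09).

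Nqo1, a quinone reductase that AhR and NRF2 both induce, fell from 59.5, 59.5 and 68.6 CPM to 27.7, 27.3 and 29.2 CPM with Printex90. With G3-1 it read 52.4, 48.3 and 60 CPM and then 43.2, 56.5 and 52.9 CPM, and with Bayertitan 62.9, 62.1 and 63.5 CPM and then 60, 55.1 and 58.6 CPM. The 3 Printex90 overload libraries were tight and below the rest, and the difference was -1.06 ± 0.12 (edgeR adjusted p = 4.05e-07). Nqo1 was also the single called gene of 27 tested NRF2 and glutathione genes, whose median was 0.0462. Ugt1a6, a glucuronosyltransferase, differed by -0.24 ± 0.06 (edgeR adjusted p = 0.0305), a call that was lost in 13 of 18 fits that left out 1 library. The remaining targets missed the threshold: Aldh3a1 differed by -3.92 ± 1.30 (edgeR adjusted p = 0.162), Tiparp by -0.41 ± 0.14 (edgeR adjusted p = 0.159), Ptgs2 by -0.74 ± 0.34 (edgeR adjusted p = 0.386) and Lpcat2 by -0.11 ± 0.073 (edgeR adjusted p = 0.605). None of 7 tested genes of the receptor's own machinery was called; Ahr itself differed by 0.026 ± 0.22 (edgeR adjusted p = 0.981) and its partner Arnt by -0.082 ± 0.077 (edgeR adjusted p = 0.736). With the epithelial marker level as a covariate 6 targets were lower, and without the libraries over 10 CPM of Col3a1 4 were.

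The promoters of Cyp1b1 and Ahrr are shown because both genes fell and both hold more than 1 copy of the AhR element core. The sequences are the 250 bases before the transcript start from RefSeq, build GRCr8: chr6:21094315-21094564 on the plus strand for Cyp1b1 and chr1:30821969-30822218 on the plus strand for Ahrr. Capitals mark GCGTG, or its reverse complement CACGC.
Cyp1b1: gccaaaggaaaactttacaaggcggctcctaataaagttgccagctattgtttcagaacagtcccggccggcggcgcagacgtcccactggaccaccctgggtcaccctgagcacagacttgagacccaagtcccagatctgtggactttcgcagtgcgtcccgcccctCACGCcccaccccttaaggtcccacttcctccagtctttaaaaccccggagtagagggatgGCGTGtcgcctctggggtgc
Ahrr: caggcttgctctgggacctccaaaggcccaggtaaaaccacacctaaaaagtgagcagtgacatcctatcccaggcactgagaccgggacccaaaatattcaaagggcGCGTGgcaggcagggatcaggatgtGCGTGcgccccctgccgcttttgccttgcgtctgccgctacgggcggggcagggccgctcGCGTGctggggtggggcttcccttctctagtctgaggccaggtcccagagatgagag
Cyp1b1 has copies that begin 81 and 20 bases before the start, and Ahrr has copies at 142, 117 and 57 bases. A window of 250 bases before to 50 after the start was found for 7 of the 9 tested targets, and 6 of these hold the letters on either strand. The letters are common: 29.7% of all 33469 RefSeq promoters and 49% of the 10471 tested genes with a promoter hold them. Among the called genes, 42 of 116 lower promoters (36.2%) and 29 of 57 higher promoters (50.9%) do. A match describes the letters and does not show a bound site.

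**Figure D2:**
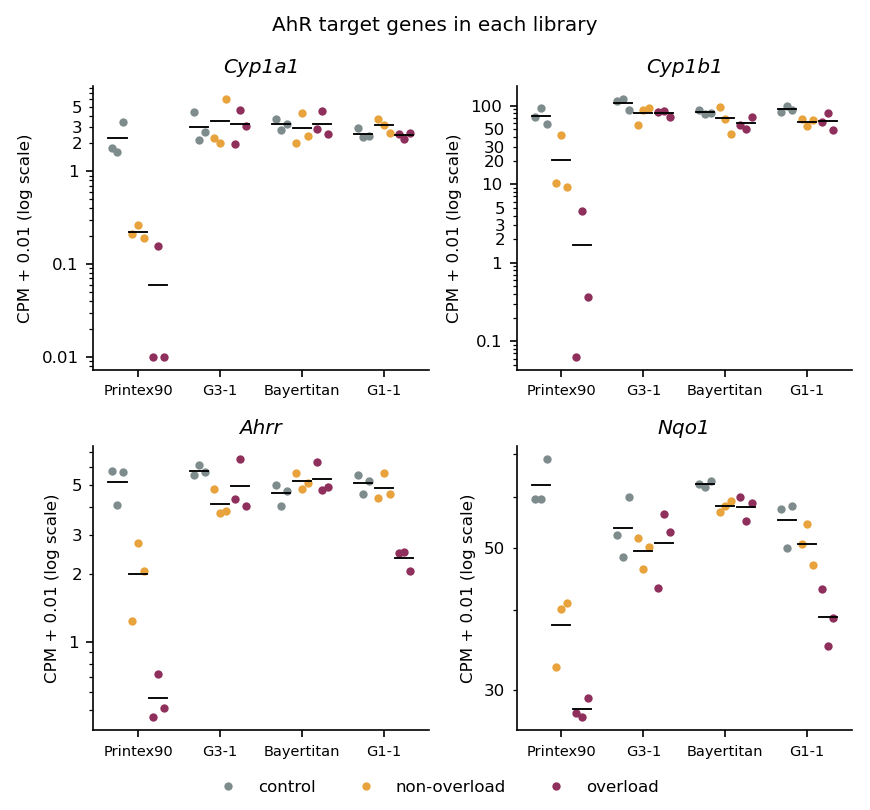
Levels of 4 AhR targets (Cyp1a1, Cyp1b1, Ahrr and Nqo1) in CPM plus 0.01 on a log axis, for each of the 4 particles under control, non-overload and overload conditions; points are libraries and bars arithmetic means. With Printex90 all 4 genes step down from control to overload, and every G3-1 and Bayertitan library lies above the Printex90 overload libraries.

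Several MHC class II genes were lower together. Of 14 tested genes for class II presentation and costimulation 7 were lower and none higher, with a median of -0.933. Cd74, the invariant chain that escorts class II molecules, read 342, 341 and 281 CPM in Printex90 controls and 95.4, 108 and 111 CPM under overload. G3-1 libraries read 313, 377 and 319 CPM as controls and 341, 314 and 284 CPM under overload, and Bayertitan libraries 261, 288 and 319.7 CPM and 352, 312 and 299.8 CPM. All 3 Printex90 overload libraries were below every other library, and the difference was -1.64 ± 0.12 (edgeR adjusted p = 1.32e-10).

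RT1-Bb, a rat class II beta chain, went from 115, 104 and 81.7 CPM to 24.1, 27.8 and 30.6 CPM with Printex90, and the G3-1 and Bayertitan libraries ranged from 84.4 to 139.5 CPM. Its groups did not overlap, and the difference was -1.93 ± 0.17 (edgeR adjusted p = 1.75e-08). The chains RT1-Da, RT1-Db1 and RT1-Ba differed by -1.75 ± 0.17 (edgeR adjusted p = 3.76e-08), -1.73 ± 0.16 (edgeR adjusted p = 3.76e-08) and -1.62 ± 0.15 (edgeR adjusted p = 3.14e-08). RT1-DMa, part of the peptide-loading machinery, differed by -0.90 ± 0.12 (edgeR adjusted p = 3.47e-05). Ciita, the class II coactivator, read 10, 9.94 and 8.77 CPM in Printex90 controls and 3.59, 4.29 and 2.66 CPM under overload, and between 8.54 and 13.2 CPM in the G3-1 and Bayertitan libraries. The Printex90 overload libraries were again the lowest of the 18, with a difference of -1.61 ± 0.17 (edgeR adjusted p = 1.86e-07); Ciita, RT1-Da and RT1-DMa were singled out after their values were seen, as were the uncalled genes of this list. Costimulatory genes were not called: Cd86 differed by -0.15 ± 0.087 (edgeR adjusted p = 0.497), Cd80 by -0.27 ± 0.095 (edgeR adjusted p = 0.193) and Cd40 by -0.14 ± 0.17 (edgeR adjusted p = 0.799). Of 15 tested genes for class I presentation none was called, and their median was -0.0411. The count of 7 class II genes was the same in every alternative fit of the difference from G3-1 and Bayertitan.

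Promoters of 4 class II chains are shown because these genes fell together. Each line holds the bases from 120 to 21 before the RefSeq transcript start in GRCr8: chr20:4576937-4577036 on the plus strand for RT1-Ba, chr20:4604139-4604238 on the minus strand for RT1-Bb, chr20:4515295-4515394 on the plus strand for RT1-Da and chr20:4560183-4560282 on the minus strand for RT1-Db1. Capitals mark GATTGG, or its reverse complement CCAATC.
RT1-Ba: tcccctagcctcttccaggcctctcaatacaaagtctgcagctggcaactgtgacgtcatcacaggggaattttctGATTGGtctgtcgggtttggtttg
RT1-Bb: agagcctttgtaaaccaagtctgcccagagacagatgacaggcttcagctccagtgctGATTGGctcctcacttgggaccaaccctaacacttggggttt
RT1-Da: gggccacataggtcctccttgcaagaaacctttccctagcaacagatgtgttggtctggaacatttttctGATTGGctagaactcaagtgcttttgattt
RT1-Db1: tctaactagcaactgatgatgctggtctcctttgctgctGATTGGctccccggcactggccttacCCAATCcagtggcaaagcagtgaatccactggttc
All 7 tested RT1 class II genes with a promoter entry hold these letters, against 14.8% of all RefSeq promoters and 19.6% of tested genes. In 3 of these 4 promoters the letters begin 44, 62 and 50 bases before the start, in the order RT1-Ba, RT1-Bb and RT1-Da, and RT1-Db1 has them at 81 and, on the other strand, at 55 bases. RT1-DOb, whose promoter also holds the letters, differed by 0.07 ± 0.28 (edgeR adjusted p = 0.954), and 21 of 116 promoters of lower genes (18.1%) hold them.

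Complement genes were lower too. Of 18 tested, 5 were lower and none higher, with a median of -0.236. C1qb, a chain of the C1q recognition molecule that tissue macrophages secrete, read 18.7, 24.1 and 16.2 CPM in Printex90 controls and 2.69, 5.14 and 3.9 CPM under overload. It read 20.2, 27.9 and 20.5 CPM and then 24.9, 22 and 20.6 CPM with G3-1, and 16.3, 15.9 and 22.3 CPM and then 22.2, 17.2 and 16.5 CPM with Bayertitan. Printex90 overload was well below all other libraries, with a difference of -2.34 ± 0.22 (edgeR adjusted p = 3.14e-08). The other chains C1qa and C1qc differed by -1.89 ± 0.20 (edgeR adjusted p = 3.49e-07) and -2.42 ± 0.24 (edgeR adjusted p = 5.15e-08). C3, the central complement protein, differed by -0.95 ± 0.20 (edgeR adjusted p = 0.00621), and Cfp, which encodes properdin, by -0.77 ± 0.10 (edgeR adjusted p = 1.16e-05). With the fibroblast or the epithelial marker level as a covariate 8 complement genes were lower.

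Among surface receptors Stab1, a scavenger receptor also called stabilin-1, had one of the clearest differences. Its level was 56.1, 62.6 and 67.8 CPM in Printex90 controls and 5.94, 8.1 and 11.1 CPM under overload. With G3-1 it was 56.4, 72.5 and 63.5 CPM in controls and 69.7, 97.2 and 81 CPM under overload, and with Bayertitan 57.6, 51.2 and 66 CPM and 99.7, 69.1 and 65.2 CPM. Printex90 overload was lowest and the response with both titanium dioxides was above 0, at 0.37 ± 0.16 and 0.42 ± 0.16 on the log2 scale, with edgeR adjusted p of 0.354 and 0.423. The difference for Stab1 was -3.31 ± 0.22 (edgeR adjusted p = 2.93e-11). Of 26 tested scavenger and phagocytic receptors 5 were lower (Stab1, Clec10a, Fcgr1a, Cd14 and Axl) and none higher, with a median of -0.11. In the single responses 7 of the 26 fell and 2 rose with Printex90, where 7.31% and 7.45% of all genes did. With G1-1 overload 13 fell and 4 rose, where 14.4% and 13.7% did. The Printex90 response differed from that of G1-1 at 3 lower and 2 higher receptors. Of the 18 fits that left out 1 library the Fcgr1a call was lost in 15, that of Clec10a in 6, Axl in 5 and Cd14 in 2. Fcgr1a was also not called with all 3 titanium dioxides averaged. The count of 5 was 1 without Printex90 control 1, 2 without Printex90 overload 1 or 3, and 3 without any one of Printex90 control 2, Bayertitan control 2 or 3 and Bayertitan overload 1. It was 10 with the epithelial covariate and 8 with the fibroblast covariate, 3 without the libraries over 10 CPM of Col3a1, and 1 in a fit of the 18 libraries alone.

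Csf2rb, the shared beta chain of the receptors for GM-CSF, interleukin-3 and interleukin-5, fell from 89.4, 91.8 and 75.3 CPM to 32.1, 40.8 and 32.9 CPM with Printex90. G3-1 libraries read 85.9, 84.1 and 86.3 CPM as controls and 94.9, 90.1 and 92.9 CPM under overload, and Bayertitan libraries 89.1, 89.2 and 91.2 CPM and 99.9, 94.8 and 84.3 CPM. The groups did not overlap, and the difference was -1.36 ± 0.10 (edgeR adjusted p = 3.38e-10). It was the single lower gene of the 18 tested alveolar macrophage identity genes, of which Fabp5 was higher at 0.48 ± 0.11 (edgeR adjusted p = 0.0218) and was not called without Printex90 control 1, control 2 or overload 1. Tlr5, the flagellin receptor, read 59.4, 55.3 and 69.1 CPM in Printex90 controls and 16.9, 19 and 19.1 CPM under overload, against 45.3 to 70.9 CPM in the other libraries of the 18; the difference was -1.88 ± 0.13 (edgeR adjusted p = 9.12e-11). Notch1, singled out after its values were seen, went from 80.5, 86.1 and 74.7 CPM to 22.8, 26 and 26.1 CPM with Printex90. It ranged from 67.8 to 88.9 CPM in all other libraries of the 18, with a difference of -1.58 ± 0.092 (edgeR adjusted p = 1.63e-12). Apol3, a member of the apolipoprotein L family, fell from 15.1, 18 and 13.2 CPM to 1.86, 2.51 and 2.34 CPM with Printex90, below the 11.9 CPM that was the lowest of the other libraries, and the difference was -3.15 ± 0.18 (edgeR adjusted p = 1.63e-12). Cx3cr1, the fractalkine receptor, differed by -2.81 ± 0.53 (edgeR adjusted p = 0.00292) at levels of at most 1.03 CPM, and it was not called without the libraries over 10 CPM of Col3a1.

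**Figure D3:**
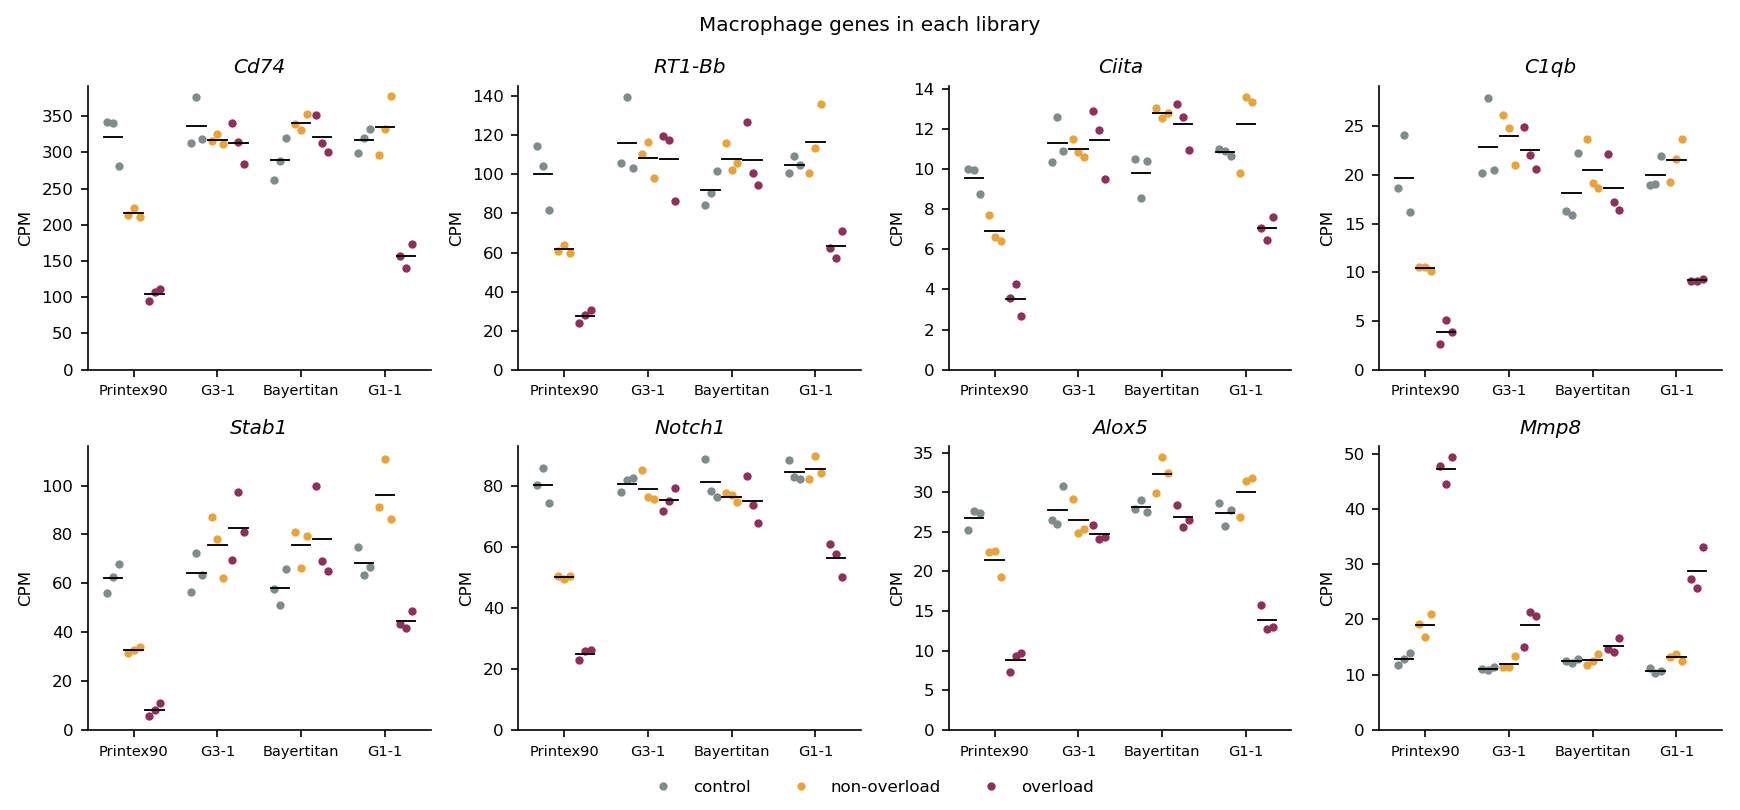
Levels in CPM (linear axes from 0) of 8 genes, Cd74, RT1-Bb, Ciita, C1qb, Stab1, Notch1, Alox5 and Mmp8, by particle and condition; points are libraries and black bars means. Under Printex90 overload the first 7 genes are lowest and Mmp8 is highest of all control and overload groups of Printex90, G3-1 and Bayertitan.

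Enzymes that make prostaglandins and leukotrienes from arachidonic acid were lower at several steps. Of 19 tested, 5 were lower and none higher, with a median of -0.102. Alox5, the 5-lipoxygenase that starts leukotriene synthesis, fell from 25.2, 27.6 and 27.4 CPM to 7.32, 9.34 and 9.67 CPM with Printex90. It read 26.5, 26 and 30.7 CPM and then 25.9, 24 and 24.3 CPM with G3-1, and 27.9, 29 and 27.5 CPM and then 28.4, 25.6 and 26.4 CPM with Bayertitan. Its Printex90 overload libraries were the lowest by a wide gap, and the difference was -1.50 ± 0.12 (edgeR adjusted p = 1.01e-09). Alox5ap, which presents the substrate to that enzyme, differed by -0.65 ± 0.13 (edgeR adjusted p = 0.00549), and this call was lost without the libraries over 10 CPM of Col3a1. Ptgs1, the constitutive cyclooxygenase, went from 161, 165 and 163 CPM to 83, 95.5 and 95.1 CPM with Printex90 and stayed between 159 and 186.5 CPM with G3-1 and Bayertitan. The groups were apart, and the difference was -0.86 ± 0.089 (edgeR adjusted p = 1.70e-07). Ptges, a prostaglandin E synthase, read 4.2, 3.4 and 2.23 CPM in Printex90 controls and 0.0799, 0.177 and 0.106 CPM under overload, while the G3-1 and Bayertitan libraries held 2.46 to 11.1 CPM. Its overload libraries were below all others, with a difference of -4.29 ± 0.75 (edgeR adjusted p = 9.55e-04). Alox15 differed by -0.54 ± 0.14 (edgeR adjusted p = 0.0401), and this call was lost in 13 of 18 fits that left out 1 library. Without the libraries over 10 CPM of Col3a1 3 of the 5 genes were called.

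Chemokines that draw neutrophils and monocytes were lower with Printex90. Of 23 tested ligands 5 were lower and none higher, with a median of -0.709. Cxcl2, a neutrophil chemokine, read 16, 17.7 and 16.6 CPM in Printex90 controls and 9.66, 11.4 and 10.6 CPM under overload. It read 15.1, 18.6 and 16.4 CPM and then 18.4, 25.4 and 19.3 CPM with G3-1, and 15, 13.9 and 13.3 CPM and then 17.7, 16.6 and 16.1 CPM with Bayertitan. Printex90 overload was the lowest group, and the difference was -0.96 ± 0.14 (edgeR adjusted p = 9.85e-05). Cxcl3, which acts on the same receptor, fell from 151, 157 and 99.2 CPM to 55.3, 73.7 and 78.1 CPM with Printex90, and the difference was -1.14 ± 0.21 (edgeR adjusted p = 0.00199). Ccl7, a monocyte chemokine, differed by -1.01 ± 0.20 (edgeR adjusted p = 0.00329). Cxcl6 differed by -1.20 ± 0.30 (edgeR adjusted p = 0.0298) and Ccl2 by -0.46 ± 0.12 (edgeR adjusted p = 0.0372); the first call was lost in 5 and the second in 13 of 18 fits that left out 1 library. The count of 5 chemokines was 3 without any one of Printex90 control 1 or 2, Printex90 overload 1 or 3 and Bayertitan overload 1, and 3 without the libraries over 10 CPM of Col3a1.

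Of 24 tested cytokines 4 were lower and 1 was higher, with a median of -0.191. The higher one was Spp1, which encodes osteopontin. It rose from 783, 857 and 868 CPM to 1093, 996 and 1182 CPM with Printex90, above all G3-1 and Bayertitan libraries, and the difference was 0.36 ± 0.076 (edgeR adjusted p = 0.00723). Without Printex90 control 1 or without Printex90 overload 3 Spp1 was not called. The lower ones were Tnfsf10, Csf3, Il1b and Il16, at -1.10, -0.99, -0.74 and -0.57; of the 18 fits that left out 1 library these calls were lost in 11, 3, 14 and 2, in the same order. Of 21 tested growth factor ligands 2 were lower, both ligands of the EGF receptor. Areg, which encodes amphiregulin, fell from 31.1, 25.1 and 15.7 CPM to 5.4, 8.16 and 6.77 CPM with Printex90, and its difference was -1.40 ± 0.28 (edgeR adjusted p = 0.00405). Ereg differed by -1.32 ± 0.31 (edgeR adjusted p = 0.0184) and was not called without any one of Printex90 control 1 or 2 and Printex90 overload 1 or 3.

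The higher genes showed smaller differences. Mmp8, a collagenase best known from neutrophils, rose from 11.8, 12.9 and 14 CPM to 47.8, 44.5 and 49.4 CPM with Printex90. It went from 11, 10.8 and 11.5 CPM to 15.1, 21.4 and 20.5 CPM with G3-1, and from 12.6, 12.1 and 12.8 CPM to 14.7, 14 and 16.7 CPM with Bayertitan. Its level was higher under overload than in controls in all 9 overload libraries, highest in those of Printex90, and the difference was 1.35 ± 0.13 (edgeR adjusted p = 4.72e-08). Ncf1, a subunit of the phagocyte NADPH oxidase, read 1640, 1682 and 1844 CPM in Printex90 controls and 3101, 2957 and 2917 CPM under overload, above the 1356 to 2075 CPM of the other libraries of the 18. Its difference was 0.62 ± 0.097 (edgeR adjusted p = 2.21e-04). Cxcr1, a chemokine receptor, differed by 0.51 ± 0.11 (edgeR adjusted p = 0.00676), a call lost with all 3 titanium dioxides averaged.

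Mmp8 and Cxcr1 belong to a list of 9 tested neutrophil markers, of which these 2 were higher and none lower, with a median of -0.146. The summed neutrophil markers ran from 1049 to 1149 CPM in Printex90 controls and from 1121 to 1379 CPM under overload, against 775 to 965 and 1019 to 1109 CPM with G3-1 and 1089 to 1214 and 1235 to 1314 CPM with Bayertitan. The granule genes Mpo, Elane, Ltf and Prtn3 were too low to be tested, S100a8 differed by -0.31 ± 0.27 (edgeR adjusted p = 0.704), and the part of neutrophil transcripts in these results was not tested. Igf2bp1, an RNA-binding protein, rose from 0.583, 0.196 and 0.637 CPM to 2.98, 2.31 and 2.23 CPM with Printex90 and was at most 0.923 CPM in the other libraries, with a difference of 1.96 ± 0.39 (edgeR adjusted p = 0.00484). Psat1, an enzyme of serine synthesis, rose from 131, 128 and 128 CPM to 220.4, 215 and 207 CPM, with a difference of 0.49 ± 0.072 (edgeR adjusted p = 8.84e-05), while Xbp1, a transcription factor of the unfolded protein response, was lower at -0.48 ± 0.072 (edgeR adjusted p = 1.23e-04). These were the called members of 24 tested ER stress and ATF4 genes.

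Cholesterol synthesis was the list with the most higher members. Of 26 tested genes 9 were higher and none lower, with a median of 0.217. Sc5d, a late enzyme of the pathway, rose from 55.6, 54.8 and 61.4 CPM to 84.5, 78.5 and 82.4 CPM with Printex90. It read 52.3, 53.4 and 54.5 CPM and then 56.9, 58.7 and 58.4 CPM with G3-1, and 56, 54.1 and 54.5 CPM and then 55.9, 60.1 and 63.8 CPM with Bayertitan. Printex90 overload was above all other libraries, and the difference was 0.39 ± 0.065 (edgeR adjusted p = 5.04e-04). Msmo1, a sterol demethylation enzyme, went from 50.1, 49.5 and 57.1 CPM to 69.6, 65.4 and 69.2 CPM with Printex90. It was at 47.3, 50.9 and 47.6 CPM under G3-1 overload and 43.8, 52.6 and 54.1 CPM under Bayertitan overload, and the difference was 0.50 ± 0.088 (edgeR adjusted p = 0.00102). Idi1, Cyp51, Acat2, Sqle and Fdps differed by 0.60, 0.38, 0.37, 0.36 and 0.27. All but Fdps of these 5 were picked after their values were seen, and only Fdps kept its call in all 18 fits that left out 1 library; Sc5d and Msmo1 kept theirs too. The count of 9 was 5 without Printex90 control 1 or without control 2, 6 without Printex90 overload 1, and 5 without the libraries over 10 CPM of Col3a1. In the fatty acid list 2 of 14 tested genes were higher: the desaturases Fads1, at 0.79 ± 0.16 (edgeR adjusted p = 0.00456) and not called without the libraries over 10 CPM of Col3a1, and Scd2, at 0.50 ± 0.093 (edgeR adjusted p = 0.00221). The Scd2 call was lost with all 3 titanium dioxides averaged.

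Some large programs responded to Printex90 with few or no called differences from G3-1 and Bayertitan. Of 28 tested hypoxia and glycolysis genes, 21 rose with Printex90, where 7.45% of all genes rose and 7.31% fell, and 20 rose in the mean of G3-1 and Bayertitan, where 1.75% of all genes rose; 0 were called in the difference, whose median over the list was 0.0733. Of 40 tested lysosomal genes 18 rose and 2 fell with Printex90, and 2 rose in the mean of G3-1 and Bayertitan. The difference called 1 lysosomal gene, Ctsh, which was lower at -0.28 ± 0.055 (edgeR adjusted p = 0.00363). That call was lost with all 3 titanium dioxides averaged. Of 17 tested subunits of the vacuolar ATPase, which acidifies the lysosome, 6 rose with Printex90, none in the mean of G3-1 and Bayertitan and 7 with G1-1, where 1 fell, and the difference called none, with a median of 0.138. Among 25 tested genes of oxidative phosphorylation, 17 heat shock genes and 15 p53 targets none was called in the difference, with medians of 0.0653, 0.0183 and -0.0354. In the Printex90 response itself 2, 0 and 1 of these rose and 0, 0 and 5 fell, in the same order. A gene that misses the threshold here may still differ: of the genes simulated with a 1.5-fold difference, 50.7% were recovered, and of those with a 2-fold difference 82.1%. The simulation gave all genes the same spread between libraries, so the shares recovered in the real data may differ.

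**Figure D4:**
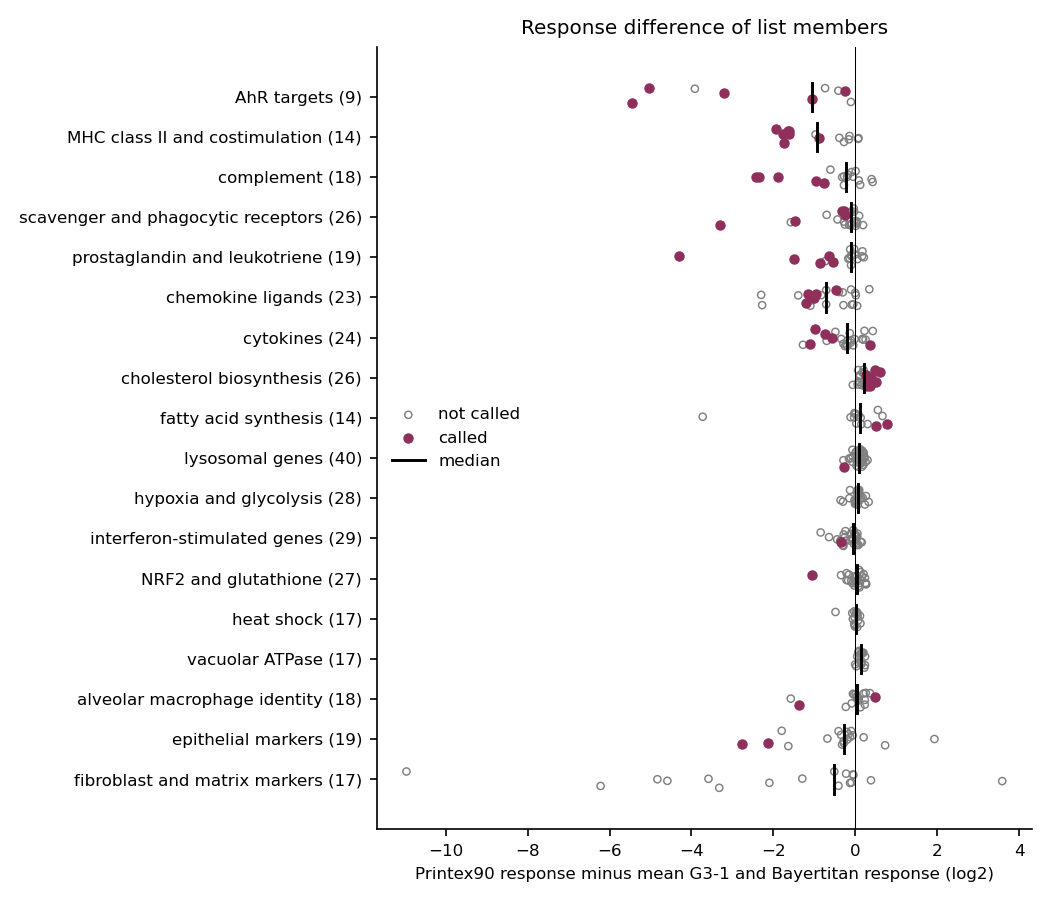
Response difference (log2, Printex90 minus the mean of G3-1 and Bayertitan) of every tested member of 18 gene lists; filled points are called genes and black ticks list medians. AhR targets, MHC class II genes and chemokine ligands have medians of -1.06, -0.933 and -0.709, and the 9 called cholesterol genes lie above 0.

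Some markers of other cell types were lower beside the falls of class II, complement and receptor genes, and their part in these results was not tested. Of 12 tested monocyte markers 3 were lower (Cx3cr1, Csf1r and Cd14) and none higher, with a median of -0.288; their sum was 1252 to 1434 CPM in the Printex90 controls and 1112 to 1145 CPM under overload. It was 1152 to 1326 and 1206 to 1347 CPM with G3-1, and 1352 to 1381 and 1305 to 1431 CPM with Bayertitan. Csf1r and Cd14 were not called in the fit of the 18 libraries alone (adjusted p = 0.0936 and 0.0767), and each lost its call when some single libraries were left out, among them Printex90 control 1 and overload 3. Of 8 tested dendritic cell markers 1 was lower, the transcription factor Batf3 at -2.22 ± 0.50 (edgeR adjusted p = 0.015), at most 0.635 CPM in the 18 libraries and not called without Printex90 control 2, without Printex90 overload 1, without the libraries over 10 CPM of Col3a1 or with all 3 titanium dioxides averaged. The dendritic sum was 199.6 to 209 CPM in Printex90 controls and 189.6 to 200.01 CPM under overload. Of 7 tested endothelial markers 1 was lower, Eng at -0.99 ± 0.21 (edgeR adjusted p = 0.00723), not called without Printex90 control 2, and that sum was 151 to 165 CPM and then 154 to 171 CPM with Printex90. In the Printex90 response itself 6 of 19 tested epithelial markers fell, where 7.31% of all genes did. In the difference 2 of the 19 were lower, with a median of -0.278: Krt5, a basal keratin, at -2.76 ± 0.60 (edgeR adjusted p = 0.0102), and Tp63, at -2.14 ± 0.55 (edgeR adjusted p = 0.0379). Krt5 was not called without Printex90 control 1 or without Printex90 overload 2, and the Tp63 call was lost in 10 of 18 fits that left out 1 library. Of 17 tested fibroblast markers none was called, with a median of -0.511. With the epithelial marker level as a covariate 401 genes were called, 306 of them lower, and the class II count of 7 was the same. Without the libraries over 10 CPM of Col3a1, 169 genes were called, 101 of them lower.

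Set against each titanium dioxide alone, the Printex90 response differed at 94 genes from G3-1 (0.644%; 18 higher and 76 lower) and at 173 from Bayertitan (1.18%; 61 higher and 112 lower). The second count was 317 without Printex90 control 3, and 107, 106, 97, 104, 103 and 93 without Bayertitan control 2, Bayertitan control 3, Bayertitan overload 1, Printex90 control 1, Printex90 control 2 and Printex90 overload 1. These comparisons share the Printex90 libraries, so their values are given side by side. Of the 14 class II genes 7 were lower in each, where 0.52% and 0.767% of all genes were, and of the 9 AhR targets 4 were lower in each. Cyp1b1 differed by -5.06 ± 0.71 (edgeR adjusted p = 6.27e-05) from G3-1 and by -5.03 ± 0.72 (edgeR adjusted p = 6.95e-05) from Bayertitan. Cd74 differed by -1.51 ± 0.14 (edgeR adjusted p = 2.04e-08) and -1.77 ± 0.14 (edgeR adjusted p = 8.33e-10), and Stab1 by -3.28 ± 0.25 (edgeR adjusted p = 6.78e-10) and -3.33 ± 0.25 (edgeR adjusted p = 4.95e-10). Between the responses to G3-1 and Bayertitan 0 of 14606 genes were called by edgeR, which is 0%, with 565 at an unadjusted p under 0.05 and 7 called by DESeq2.

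The G1-1 libraries took no part in the contrast and show how the 243 genes moved with the third titanium dioxide. G1-1 overload changed 4105 genes (28.1%), of which 1997 rose (13.7%) and 2108 fell (14.4%). Of the 161 lower genes 88 fell with G1-1, which is 54.7% of them and 4.17% of the genes that fell with G1-1, and 5 rose. Of the 82 higher genes 59 rose with G1-1, which is 72% of them and 2.95% of the genes that rose with G1-1, and 1 fell. The median G1-1 response was -0.364 over the lower genes and 0.403 over the higher ones.

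Class II genes, complement and Alox5 fell with G1-1 as well. Cd74 read 299, 319.6 and 333 CPM in G1-1 controls and 157, 140.5 and 173 CPM under G1-1 overload, a response of -1.01 ± 0.096 (edgeR adjusted p = 3.38e-09); the fall with Printex90 went further by -0.60 ± 0.14 (edgeR adjusted p = 0.00307). C1qb fell with G1-1 by -1.12 ± 0.17 (edgeR adjusted p = 1.01e-05) and Alox5 by -0.98 ± 0.096 (edgeR adjusted p = 5.82e-09), and the Printex90 response was below these by -1.21 ± 0.25 and -0.63 ± 0.14, with edgeR adjusted p of 0.0015 and 0.00224. For Cfp the response to G1-1 was -0.97 ± 0.083 (edgeR adjusted p = 4.78e-10) and the difference of Printex90 from it was 0.028 ± 0.12 (edgeR adjusted p = 0.917). Ncf1 rose with G1-1 by 0.89 ± 0.08 (edgeR adjusted p = 1.22e-09), and Mmp8 by 1.42 ± 0.11 (edgeR adjusted p = 4.90e-11).

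Other genes fell with Printex90 and were not called with G1-1, and for these the difference between the responses was itself called. Cyp1a1 read 2.9, 2.33 and 2.41 CPM in G1-1 controls and 2.52, 2.25 and 2.56 CPM under G1-1 overload, with a response of -0.059 ± 0.40 (edgeR adjusted p = 0.936). The Printex90 response differed from it by -5.34 ± 0.82 (edgeR adjusted p = 3.70e-05). Cyp1b1 had a G1-1 response of -0.49 ± 0.40 (edgeR adjusted p = 0.399) and a difference of -5.00 ± 0.72 (edgeR adjusted p = 1.60e-05). Ptges had a G1-1 response of 0.05 ± 0.42 (edgeR adjusted p = 0.949) and a difference of -4.77 ± 0.81 (edgeR adjusted p = 1.47e-04). For Csf2rb these were -0.13 ± 0.082 (edgeR adjusted p = 0.264) and -1.15 ± 0.12 (edgeR adjusted p = 5.86e-08), and for Tlr5 -0.27 ± 0.10 (edgeR adjusted p = 0.0554) and -1.48 ± 0.15 (edgeR adjusted p = 5.39e-08). Ahrr lies between, with a G1-1 response of -1.11 ± 0.21 (edgeR adjusted p = 1.35e-04) and a further fall with Printex90 of -2.11 ± 0.32 (edgeR adjusted p = 3.79e-05). It was not alone: 2 of the 9 tested AhR targets fell with G1-1, where 14.4% of all genes fell. Over all genes the Printex90 and G1-1 responses differed at 1628 (11.1%), 980 of them higher with Printex90 (6.71%) and 648 lower (4.44%), and AhR targets were lower at 6 of 9.

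Some chemokines and Spp1 moved in opposite directions with Printex90 and G1-1. Cxcl2 fell with Printex90, at -0.67 ± 0.12 (edgeR adjusted p = 2.55e-04), and rose with G1-1, at 0.33 ± 0.11 (edgeR adjusted p = 0.0293). Cxcl6 fell with Printex90, at -0.999 ± 0.25 (edgeR adjusted p = 0.00649), and rose with G1-1, at 0.68 ± 0.23 (edgeR adjusted p = 0.0284). Spp1 rose with Printex90, at 0.38 ± 0.062 (edgeR adjusted p = 9.34e-05), and fell with G1-1, from 918, 877 and 848 CPM to 668, 608 and 625 CPM. The differences between the responses were -0.998 ± 0.16 (edgeR adjusted p = 9.80e-05) for Cxcl2, -1.68 ± 0.34 (edgeR adjusted p = 0.00108) for Cxcl6 and 0.86 ± 0.088 (edgeR adjusted p = 5.50e-08) for Spp1.

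At the non-overload condition 9 genes differed in response between Printex90 and the mean of G3-1 and Bayertitan, all of them lower (0.0616%). They were Cyp1a1, Nqo1, C1qb, Stab1, Cd74, Notch1, Tlr5, Apol3 and Adgb. The count was 5 without Printex90 non-overload 1, 14 without G3-1 control 2 or Printex90 control 3, and 2 without the libraries over 10 CPM of Col3a1. This count uses the same control libraries as the overload comparison, so the non-overload libraries were also compared directly, an alternative added after the data were seen. Printex90 differed from the mean of G3-1 and Bayertitan there at 41 genes (0.281%), 39 of them lower (0.267%) and 2 higher (0.0137%). Of the 161 genes lower under overload 36 were among the 39, which is 22.4% and 92.3% of these lists, and 145 had the same sign. Of the 82 higher genes 1 was among the 2, and 75 had the same sign. Over all 14606 tested genes this comparison had a median of -3.69e-05, with quartiles of -0.0897 and 0.0664.

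Levels at non-overload lay between control and overload for the leading genes. Under Printex90 non-overload Cyp1a1 read 0.199, 0.256 and 0.182 CPM, and the response was -3.38 ± 0.53 (edgeR adjusted p = 0.00163). Cd74 read 213, 224 and 211 CPM, Stab1 31.4, 32.7 and 34.1 CPM and C1qb 10.6, 10.5 and 10.1 CPM. For each of these genes all 3 libraries were below the Printex90 controls and above the Printex90 overload libraries. Nqo1 at 32.6, 40.2 and 41 CPM did the same, and Cyp1b1 at 10.3, 42.5 and 9.34 CPM had 1 library well above the other 2. In all, the Printex90 non-overload response called 30 genes (0.205%), 7 of them higher (0.0479%) and 23 lower (0.157%).

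**Figure D5:**
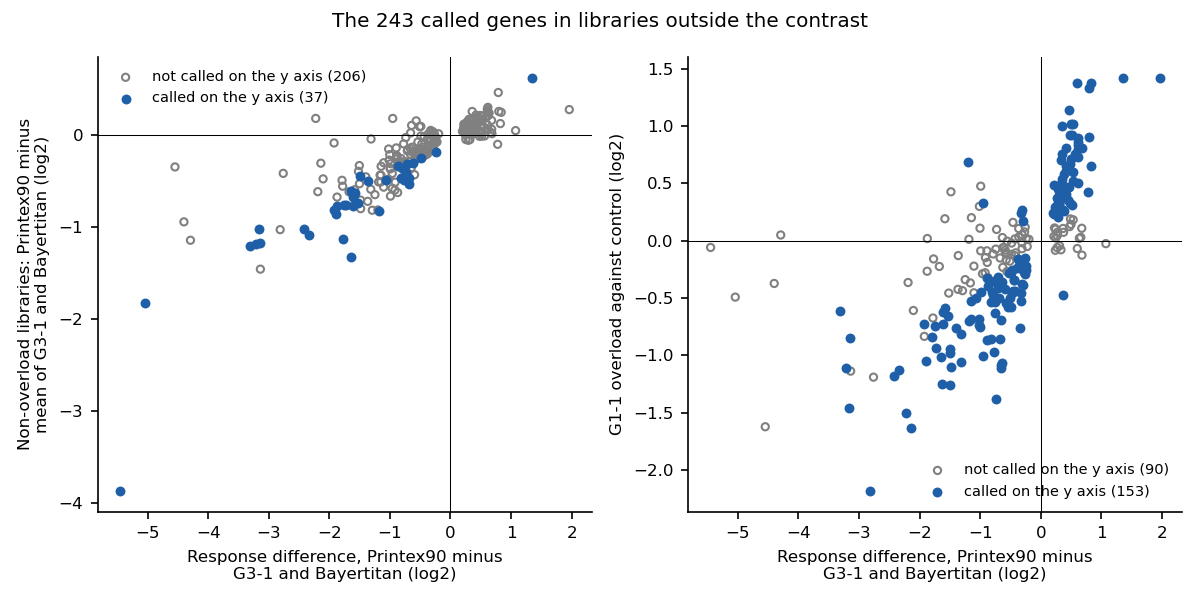
The 243 called genes, with the response difference under overload on each horizontal axis (log2). The left panel gives the difference between Printex90 and the mean of G3-1 and Bayertitan in the non-overload libraries (37 of the 243 called there), and the right panel the G1-1 overload response (153 called); most points lie at the lower left and upper right.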

How the data were processed

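Expected counts per gene for 36 libraries were deposited by the authors in 1 table, and 30.5% of its values carry decimals. The submitters' processing notes name Salmon, FastQC and MultiQC and the build Rnor_6.0, with versions not given in the sources used here. These were first rounded to whole counts, genes were kept at a minimum count of 10 in a group and 15 in total, and TMM scaling and edgeR's quasi-likelihood test were applied to all 36 libraries with 1 coefficient per group (12 groups, 24 residual degrees of freedom). This left 14606 of 23487 genes, and 3287 genes had no count. P-values were adjusted by Benjamini-Hochberg over all tested genes, with a threshold of 0.05. Errors are approximate standard errors: the size of the log2 difference divided by the square root of the test's F statistic. They follow from the test and are not a separate estimate of the spread. R 4.3.3, edgeR 4.0.16, limma 3.58.1 and DESeq2 1.42.0 were used. The library totals, given above, leave counting error small except for genes near 1 CPM, such as Cyp1a1. Replicates differed beyond sampling noise in each of 36 pairs (chi-square per degree of freedom 3.82 to 37.2), so none was merged.

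The members and gene lists were chosen with earlier results of these data known. Named genes were the 15 largest differences each way among called genes with a mean of at least 1 CPM in 1 group and the same sign against both titanium dioxides, up to 4 called members per list, those of smallest p (all members of the AhR lists), and the 3 largest each way in other comparisons; others, namely RT1-Da, RT1-DMa, Ciita, Idi1, Cyp51, Acat2, Sqle, Cxcr4, Adgb, Notch1, Runx1 and Rara, and the uncalled Cd86, Cd80, Cd40, RT1-DOb and S100a8, were chosen after their values were seen. Where 5 or fewer list members were called, all may be named. Values of some single genes are not reported here. Replicate numbers were not taken to pair libraries: the deviations of 9 same-numbered pairs of a control and an overload library of Printex90, G3-1 and Bayertitan correlated at -0.0481 to 0.542, over 0.1 in 3. Alternatives were other scaling, DESeq2, no low-count filter, a replicate block, fibroblast or epithelial marker covariates, leaving out libraries rich in Col3a1, fewer libraries in the fit, averaging all 3 titanium dioxides, and leaving out each replicate. On data simulated with these library sizes and 1 spread for all genes, 100% of 66 genes changed 4-fold were called, and 8 of 14406 unchanged genes were. Promoters came from a RefSeq table of build GRCr8. Of the deposited gene names 16711 matched RefSeq names, 88 more did after dots were replaced by hyphens, and 6688 did not. Without stranded counting stated in the sources used here, overlapping genes may share reads, and close copies among the RT1 genes may be split by the counting.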

Additional observations from a re-analysis of the deposited data

Results flagged for a closer look

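The overload response differed between Printex90 and the mean of G3-1 and Bayertitan at 243 genes by a test of the difference itself. For 3 genes named above the responses to Printex90 and G1-1 also differed by such a test while pointing in opposite directions. The difference in log2 response, Printex90 minus G1-1, was -0.998 for Cxcl2, whose 3 Printex90 overload libraries were all below and whose 3 G1-1 overload libraries were all above their controls. It was -1.68 for Cxcl6, a gene whose call against G3-1 and Bayertitan was lost in 5 of 18 fits that left out 1 library. For Spp1 it was 0.86.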

How the results depend on the processing

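No named gene that was called changed sign. The uncalled Ahr ranged from -0.156 to 0.325 and RT1-DOb from -0.0694 to 0.258 over the alternatives. The count of 243 genes was 334 with DESeq2, 242 with DESeq2's size factors, 208 without the low-count filter, 172 with the 18 libraries alone, 371 with the fibroblast covariate, 401 with the epithelial covariate, 377 with all 3 titanium dioxides averaged, and 126 to 380 when 1 library was left out. The replicate block by particle and number gave 283 genes and the block by number alone 272; same-numbered libraries correlated best with their own number in 6 of 9 pairs. Higher genes numbered 129 with DESeq2, 130 with the fibroblast covariate, 200 with all titanium dioxides averaged, where they outnumbered the lower genes, and 34 to 150 with 1 library left out. Lower genes numbered 306 with the epithelial covariate, 101 without the libraries rich in Col3a1 and 92 to 230 with 1 library left out. Against G3-1 alone the count of 94 was 184 with DESeq2, 188 with the fibroblast covariate, 317 with the epithelial covariate, 48 without the Col3a1-rich libraries and 71 to 134 with 1 library left out. Against Bayertitan alone it was 265 with the fibroblast covariate, 109 with the 18 libraries alone and 93 to 317 with 1 left out, and against G1-1 1217 to 1751. Between G3-1 and Bayertitan DESeq2 called 7, and leaving out 1 library gave 0 or 1. The non-overload count of 9 was 23 with DESeq2 and with the fibroblast covariate, 21 with the epithelial covariate, 2 without the Col3a1-rich libraries and 5 to 14 with 1 left out. Between controls DESeq2 called 2 and no fit with 1 library left out called any (0 to 0). The overload libraries differed at 1754 genes, 907 with the epithelial covariate and 571 to 1974 with 1 left out, the lowest without Printex90 overload 1. The Printex90 response called 997 to 2861 genes with 1 left out. The mean response to G3-1 and Bayertitan called 314 genes, 674 with the epithelial covariate, 51 without the Col3a1-rich libraries and 177 to 444 with 1 left out. The causes of these shifts were not tested. Of 96 named called genes, 47 kept their call in every alternative other than the average of all titanium dioxides; 34 lost it without the Col3a1-rich libraries and 36 without Printex90 control 1. Without the Col3a1-rich libraries, G3-1 control 3 and G3-1 overload 3 were the only libraries left in their groups. Lost replicates and removed fibroblast RNA cannot be told apart in that fit. Depth was similar between groups, and genes near 1 CPM, such as Cyp1a1 and Cx3cr1, have the least certain sizes.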

Other observations

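Smaller called groups lie outside the lists described above. Of 20 tested chemoattractant and growth factor receptors 4 were lower and 2 higher with Printex90 than in the mean of G3-1 and Bayertitan; besides Cx3cr1, Csf2rb and Cxcr1 these were Csf1r, the CSF-1 receptor, at -0.44 ± 0.11 (edgeR adjusted p = 0.0268), Ptafr, the receptor for platelet-activating factor, at -0.34 ± 0.065 (edgeR adjusted p = 0.00335), and Cxcr4, picked after its value was seen, at 0.47 ± 0.11 (edgeR adjusted p = 0.0184). With all 3 titanium dioxides averaged the calls of Csf1r, Cxcr1 and Cxcr4 were lost. The Csf1r call was lost in 9 of 18 fits that left out 1 library and that of Cxcr4 in 3 (Printex90 controls 1 and 2 and overload 1). Of 16 tested inflammasome genes 3 were lower: Nlrp3 at -0.31 ± 0.071 (edgeR adjusted p = 0.0167), Nlrc4 at -0.50 ± 0.13 (edgeR adjusted p = 0.0398) and Il1b; the Nlrp3 call was lost in 4 of those fits and the Nlrc4 call in 14. Of 15 tested genes of LXR targets and lipid efflux 2 were higher, Scarb1, a receptor for high-density lipoprotein, at 0.62 ± 0.14 (edgeR adjusted p = 0.018) (lost in 3 of those fits), and Fabp5, a fatty acid carrier. Of 28 tested autophagy genes 2 were higher, the cargo receptor Optn at 0.33 ± 0.084 (edgeR adjusted p = 0.0332) and Rragc, a GTPase that signals to mTORC1, at 0.32 ± 0.083 (edgeR adjusted p = 0.0383), calls lost in 11 and 12 of those fits. Of 29 tested interferon-stimulated genes 1, Irf1, was lower, at -0.35 ± 0.071 (edgeR adjusted p = 0.00604), a call lost in the fit of the 18 libraries alone (adjusted p = 0.0536) and with all 3 titanium dioxides averaged (-0.15, adjusted p = 0.281). The calls of Nlrp3, Nlrc4, Il1b, Scarb1 and Rragc were lost too with all 3 titanium dioxides averaged. Over all tested genes 1.1% were lower and 0.561% higher.

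Transcription factors with a call included Runx1, a factor of blood cell development, and Rara, a retinoic acid receptor; both were chosen after their values were seen. Runx1 went from 42.1, 44.9 and 39.2 CPM in Printex90 controls to 25, 28.2 and 27.3 CPM under overload, and its response difference was -0.62 ± 0.087 (edgeR adjusted p = 3.53e-05). Its G1-1 response was -0.06 ± 0.07 (edgeR adjusted p = 0.576), and the Printex90 response differed from that by -0.59 ± 0.1 (edgeR adjusted p = 1.43e-04). Rara differed by -0.59 ± 0.10 (edgeR adjusted p = 9.55e-04), and from G1-1 by -0.62 ± 0.12 (edgeR adjusted p = 5.91e-04).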
